A study of Mus musculus with 24 samples.

Results

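The 40 genes described here encode the constitutive proteasome and its partners in mouse gastrocnemius, the large calf muscle. They are the protein-coding genes whose symbol begins with Psma, Psmb, Psmc, Psmd or Psme and a digit and that had at least 10 reads in 3 or more of 24 RNA-sequencing libraries, out of 54752 gene IDs in the count tables. Of 49 symbols with this pattern, 3 are immunoproteasome subunits that were left out (Psmb8, Psmb9 and Psmb10), 4 are not protein-coding, and 2, Psma8 and Psmb11, had too few reads. The members are 7 alpha and 7 beta genes of the core particle, 17 genes of the regulatory particle (6 ATPases, 3 other base subunits and 8 lid subunits), 3 genes of assembly chaperones (Psmd5, Psmd9 and Psmd10), 5 activator genes (Psme1, Psme2, Psme2b, Psme3 and Psme4) and Psmc3ip. Psmc3ip matches the pattern by its symbol but is known as a factor of meiotic recombination, not as a proteasome subunit.

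The proteasome degrades proteins that carry ubiquitin chains. Its barrel-shaped core holds the proteolytic sites on the beta subunits Psmb5, Psmb6 and Psmb7, while the alpha subunits form the gate. The regulatory particle binds the chain, removes it and feeds the unfolded protein into the core, and the Psme activators open the gate without ubiquitin. In skeletal muscle this pathway is known as a main route of loss of contractile protein during wasting, and its subunit genes are known to be expressed in a coordinated way.

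Every animal was Numb(f/f) and NumbL(f/f), with floxed copies of the genes of the endocytic adaptors Numb and Numbl. Transgene animals also carried HSA-MCM, a Cre recombinase that tamoxifen activates, driven by the human skeletal actin promoter, so that the Cre is expected in muscle fibres and not in other cells of the muscle. Flox animals had no Cre, and the 6 flox male libraries are titled WT. Females and males of each genotype received vehicle or tamoxifen, which gave 8 groups of 3 libraries. Transgene animals given tamoxifen are the conditional knockout, while flox animals given tamoxifen received the drug without the recombinase. The sources used here do not give ages, doses or times. The labels do not say that each library is a separate animal, so the error behind each p-value is the spread of these libraries, which may be technical. The 3 male transgene libraries titled as vehicle controls have tamoxifen in their treatment field and were grouped by title. In the gene Flrt1 they read 3.26 to 3.68 CPM (read counts scaled to a common library size). Flox vehicle males read 1.67 to 2.31 CPM, a log2 difference of 0.85 ± 0.21 (SE; adjusted p = 0.0782, edgeR's quasi-likelihood test). The tamoxifen males of either genotype read 169 to 280 CPM. Flox females read 1.02 to 2.23 CPM after vehicle and 8.56 to 54.3 CPM after tamoxifen. Flrt1 was known from these same data as a gene that rises with tamoxifen, so it is no independent check of the titles.

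Read counts were deposited in 3 tables, of transgene females, flox females and all males, with 21516819 to 43014516 reads per library. The members held 0.341% to 0.419% of the reads of a library. Myh4, the fast myosin gene that marks this muscle, lay at 45868 CPM or more in every library. Numb lay between 15.3 and 25.3 CPM and Numbl between 2.67 and 6.49 CPM. Numb after tamoxifen had a log2 change of -0.24 ± 0.08 in transgene females (SE; adjusted p = 0.187, edgeR's quasi-likelihood test) and of 0.00 ± 0.10 in transgene males (adjusted p = 1). Without Cre the values were -0.28 ± 0.10 in females (adjusted p = 0.452) and -0.23 ± 0.10 in males (adjusted p = 0.233), and Numbl ranged from 0.34 ± 0.18 in males with the transgene to 0.51 ± 0.18 in males without it (adjusted p = 0.594 and 0.153). Averaged over the 4 strata of sex and genotype, with and without Cre, both genes passed an adjusted p of 0.05, as did 8.83% of all genes. Numb had -0.19 ± 0.04 there (adjusted p = 0.00761, edgeR's quasi-likelihood test) and Numbl 0.42 ± 0.08 (adjusted p = 0.00261). Whole-gene counts do not separate the floxed part of these genes from the rest. Esr1, whose ligand-binding part is fused to the Cre, ranged from 399 to 1951 CPM with the transgene and from 22.8 to 42.1 CPM without it.

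Before the levels are read, members with a near-identical copy elsewhere in the genome have to be set apart. The coding sequence of 10 of the 40 members recurs over at least 80% of its length, at 95% identity or more, in another annotated gene: Psma3, Psma4, Psma5, Psmb3, Psmb5, Psmc1, Psmd2 and Psmd11, whose best copies are processed pseudogenes, and the pair Psme2 and Psme2b. Short reads from such genes can be assigned to either place or to none. The sources used here do not say how reads that map to several places were counted. The exons of Psmb5, Psmb7, Psmc3ip, Psmd9 and Psmd13 also overlap another gene over at least 10% of their bases, and whether strand was used in counting is not stated, so their counts are uncertain in this way too. Coding stretches of 90 bases are shown for 3 such pairs because they are the windows with the most differences within each pair, and capitals mark the bases that differ. They are sequences of the GENCODE transcripts of GRCm38.
Psmb5 (chromosome 14, minus strand): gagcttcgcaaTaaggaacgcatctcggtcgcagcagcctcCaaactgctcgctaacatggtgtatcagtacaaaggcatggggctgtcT
Gm3375, copy of Psmb5 (chromosome 7): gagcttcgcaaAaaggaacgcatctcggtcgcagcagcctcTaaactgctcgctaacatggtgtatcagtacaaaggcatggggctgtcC
Psma5 (chromosome 3, plus strand): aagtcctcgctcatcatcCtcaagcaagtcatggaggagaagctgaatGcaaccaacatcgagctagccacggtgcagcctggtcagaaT
Gm8394, copy of Psma5 (chromosome 10): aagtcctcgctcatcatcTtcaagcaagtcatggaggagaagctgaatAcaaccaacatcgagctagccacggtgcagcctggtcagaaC
Psme2 (chromosome 14, minus strand): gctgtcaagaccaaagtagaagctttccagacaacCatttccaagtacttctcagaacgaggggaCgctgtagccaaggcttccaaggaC
Psme2b, copy of Psme2 (chromosome 11): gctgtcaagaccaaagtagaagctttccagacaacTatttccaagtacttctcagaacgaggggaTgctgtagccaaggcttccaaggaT
Each window holds 3 differing bases. Over the aligned coding sequence Psmb5 and Gm3375 (3181093 to 3181888) differed at 9 of 793 positions, with a longest identical run of 194 bases. Psma5 and Gm8394 differed at 8 of 723 positions, with a run of 248 bases. Psme2 and Psme2b differed at 5 of 717 positions, with a run of 311 bases.

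Of the 40 members, 5 stood at least 2-fold lower in the table of transgene females than in both other tables, and all 5 have such a copy. Psma3, an alpha subunit, had a mean of 28.1 CPM in the 6 transgene female libraries, 83.7 CPM in the 6 flox female libraries and 122 CPM in the 12 male libraries. Psma5, also an alpha subunit, had 12.7, 35.9 and 43.8 CPM in the same order. Psmb3, a beta subunit without a proteolytic site, had 22.4, 58.7 and 63.1 CPM. Psmb5, the beta subunit with the chymotrypsin-like site, had 16.96, 44.2 and 51.3 CPM. Psme2, which encodes the beta chain of an interferon-inducible activator, had 7.06, 20.8 and 15.3 CPM. For each of these 5 genes the highest transgene female library lay below the lowest library of either other table. The other 5 members with a copy, Psma4, Psmc1, Psmd2, Psmd11 and Psme2b, were not 2-fold lower than in both other tables. Among the 30 members without a copy 0 were 2-fold lower. Their ratios of flox to transgene females ran from 0.869 to 1.36 and their ratios of males to transgene females from 0.733 to 1.39. Over all 16670 genes tested on the 24 libraries, 7.52% were 2-fold lower in transgene females than in both other tables and 1.17% were 2-fold higher.

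Transgene males did not share this gap with transgene females. In females the genotype and the table cannot be told apart. Levels of the female genotypes are set side by side here as values of their tables, and were not tested against each other. Adding the reads counted at the copies left 4 of the 5 genes more than 2-fold lower in transgene females. The copies held 4.56% of the summed Psma3 reads in transgene females, 0.696% of those of Psma5, 1.32% of those of Psmb3 and 4.08% of those of Psme2. Psmb5 differed from them, as its copy held 41.0% of the sum in transgene females, 22.7% in flox females and 9.95% in males. With the copy added, Psmb5 remained 1.99-fold lower in transgene females than in flox females and 1.98-fold lower than in males.

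**Figure D1:**
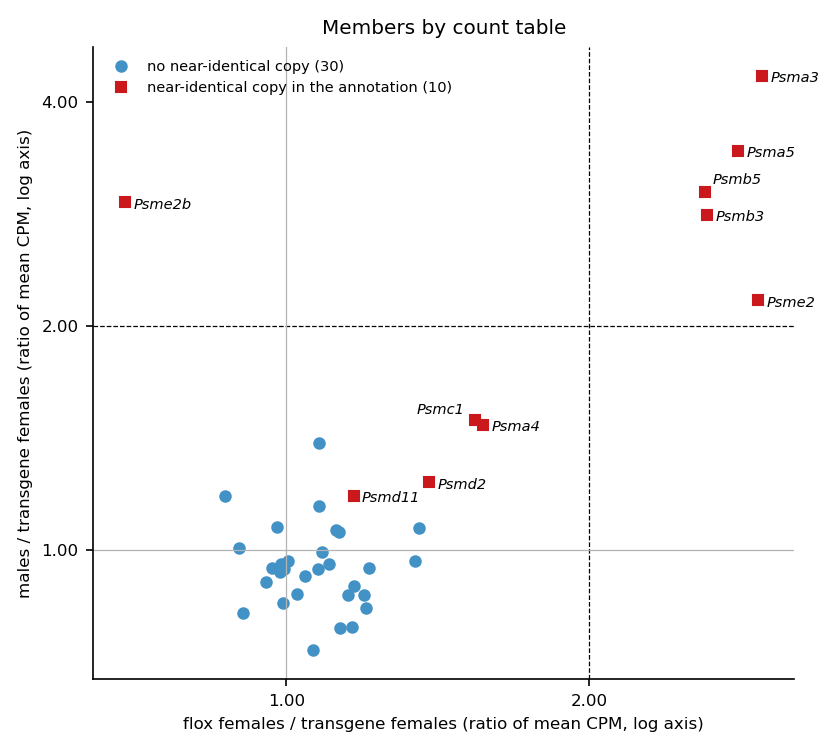
Ratio of the mean CPM in flox females (x axis) and in males (y axis) to that in transgene females, on log axes, for each of the 40 members. Squares are the 10 members with a near-identical copy and circles the 30 without; dashed lines mark 2-fold, and the 5 genes beyond both lines are Psma3, Psma5, Psmb3, Psmb5 and Psme2.

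In the female groups the libraries with the lowest counts of Psmb5 were among those with the highest counts of its pseudogene. In flox females after vehicle Psmb5 read 31.3, 57.4 and 62.5 CPM, and Gm3375 in the same libraries read 20.4, 0.254 and 0.516 CPM. After tamoxifen Psmb5 read 50.4, 30.2 and 33.6 CPM and Gm3375 12.01, 19.98 and 24.6 CPM. The sums were 51.7, 57.6 and 63.0 CPM after vehicle and 62.4, 50.2 and 58.2 CPM after tamoxifen. The vehicle library low in Psmb5 was the one high in Gm3375, both tamoxifen libraries low in Psmb5 were higher in Gm3375 than the third, and the sums of the groups overlapped. In transgene females the tamoxifen library 1 read 26.1 CPM for Psmb5 and 0.0487 CPM for Gm3375, while the other 5 libraries read 12.8 to 18.7 CPM for Psmb5 and 8.47 to 18.6 CPM for Gm3375. Males were steadier, with 45.4 to 60.1 CPM for Psmb5 and 1.98 to 10.7 CPM for Gm3375. The SD within groups on the log2 scale was 0.34 for Psmb5 and 0.12 for the sum. Psmb5 is the subunit that proteasome inhibitors used in the clinic bind best. The log2 change of Psmb5 with tamoxifen in flox females was -0.40 ± 0.34 (SE; adjusted p = 0.807, edgeR's quasi-likelihood test) on its own count and -0.01 ± 0.10 (adjusted p = 0.989) with the copy added. In transgene females the change was 0.06 ± 0.31 on its own count and 0.02 ± 0.11 with the copy added.

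**Figure D2:**
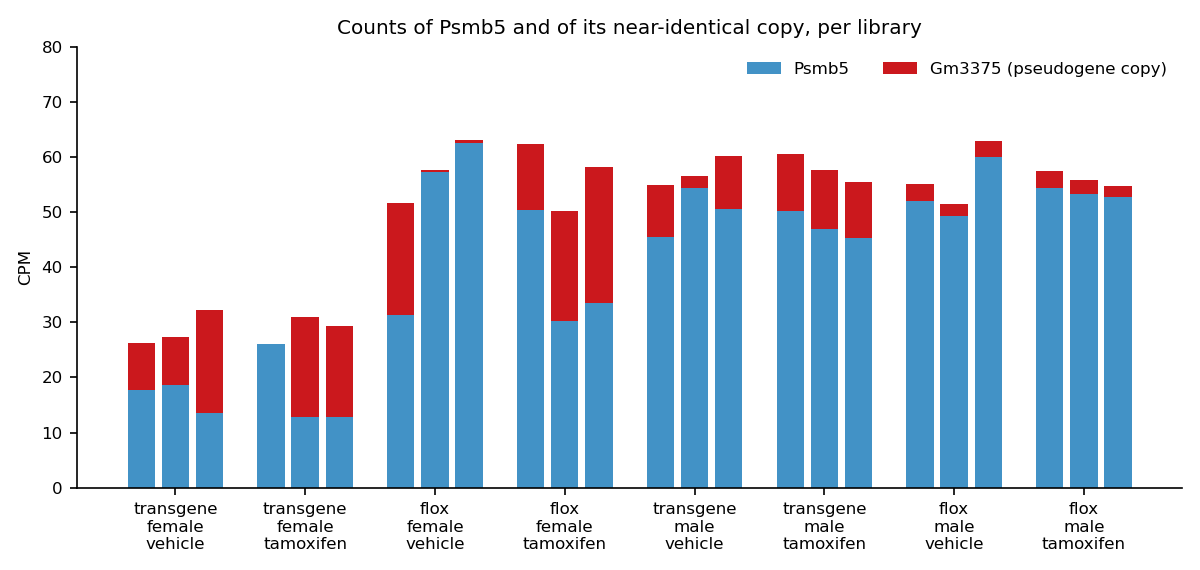
CPM of Psmb5 (lower bar) and of its pseudogene copy Gm3375 (stacked on it) in each of the 24 libraries, by group. The division between the bars shifts within the female groups, while the stacked height stays between 26.1 and 32.2 CPM in transgene females and between 50.2 and 63.0 CPM in flox females.

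Levels were compared between genes as CPM per kb of annotated exon, averaged over the 24 libraries. Among alpha subunits Psma6 was highest at 81.4 CPM per kb and Psma2 lowest at 18.7. Among beta subunits Psmb6, which carries the caspase-like site, was highest at 63.9 CPM per kb in this mean, and Psmb1 lowest at 19.2. Psmb7, which carries the trypsin-like site, had 46.7 CPM per kb and Psmb5 45.5. The ATPases, which form the ring that unfolds substrates, ran from 26.9 CPM per kb for Psmc2 to 92.7 for Psmc5, the highest of the 40 members by this length. The other base subunits ran from 24.9 CPM per kb for the scaffold Psmd1 through 53.8 for Psmd4, a ubiquitin receptor, to 70.9 for Psmd2. In the lid Psmd7 was highest at 64.6 CPM per kb and Psmd11 lowest at 15.4, with Psmd14, the subunit that cuts off the ubiquitin chain, at 18.3. The 14 core genes and 17 regulatory genes thus covered similar ranges, 18.7 to 81.4 and 15.4 to 92.7 CPM per kb.

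The assembly chaperones lay lower, with 2.18 CPM per kb for Psmd9, 2.53 for Psmd5 and 4.998 for Psmd10. Of the activators, Psme4, which encodes a large single-chain cap of the core, was highest at 36.3 CPM per kb. Psme3, the nuclear activator, had 20.04 CPM per kb, Psme1 14.2 and Psme2 8.27. Psme2b had 0.677 and Psmc3ip 0.938 CPM per kb. The 3 immunoproteasome genes left out by the rule, which replace the proteolytic beta subunits in immune cells and after interferon, lay at 0.571 CPM per kb for Psmb9, 0.981 for Psmb8 and 4.97 for Psmb10. Their constitutive counterparts Psmb6, Psmb5 and Psmb7 lay at 63.9, 45.5 and 46.7. These orders depend on the length used and on the libraries in the mean. By the transcript with the longest coding sequence Psmb6 (150 CPM per kb) was the highest of the 40 members, followed by Psmb7 (138). Psmc6 (44.0) and Psmc3 (116) were then the lowest and highest ATPase, Psmd4 (118) the highest base subunit and Psmd14 (33.5) the lowest lid subunit. The order of the assembly chaperones turned, with Psmd5 lowest at 4.16 and Psmd9 highest at 6.08, and Psme1 (28.1) stood above Psme3 (22.2). Psmb5 (45.5) took the place of the lowest beta subunit in the mean over all libraries. That mean includes the transgene female table, where the count of Psmb5 was low. In the 12 male libraries Psmb5 had 57.0 CPM per kb by either length, above Psmb1 (48.7) and Psmb2 (51.0) by transcript length. By exon union the beta subunits of the males were led by Psmb4 at 59.9, Psmb5 at 57.0 and Psmb6 at 55.2, and by transcript length Psmb6 led at 129. In the lid of the males Psmd8 (102) stood above Psmd7 (88.1) by transcript length. Psma2, Psma6, Psmd1, Psme2b and Psme4 were at the same end of their classes by both lengths, over all libraries and over males.

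**Figure D3:**
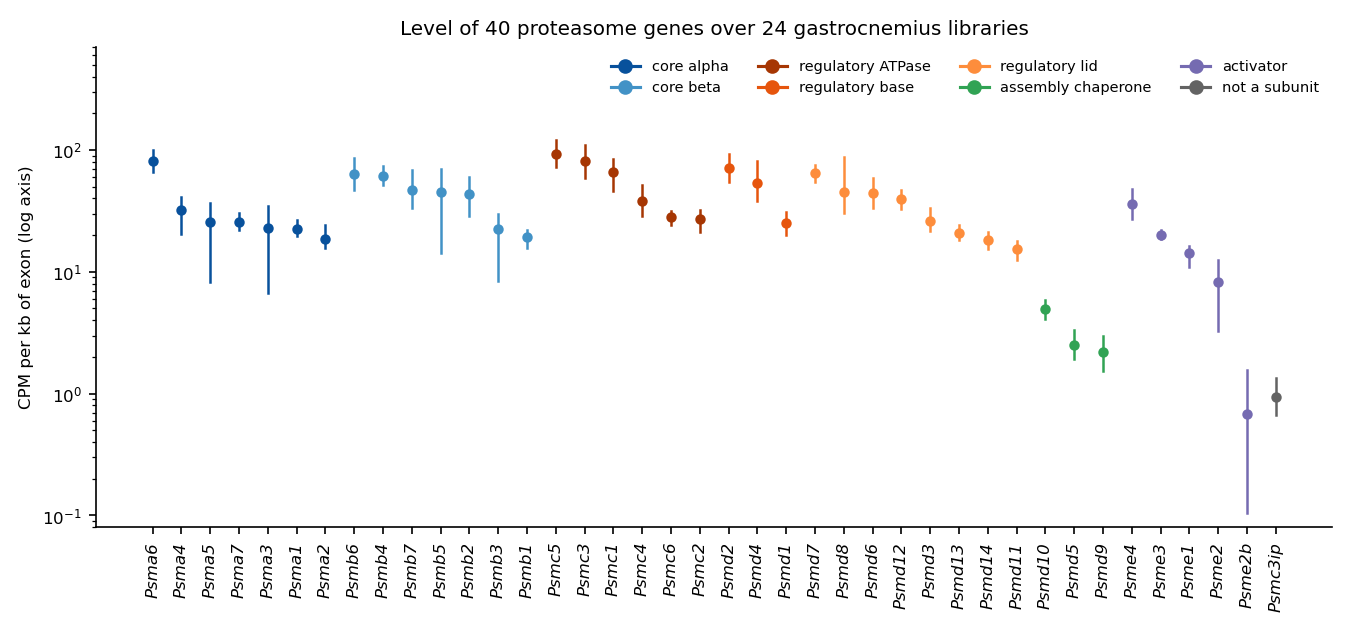
CPM per kb of exon (log axis) of each member, grouped by role; points are means over 24 libraries and bars run from the lowest to the highest library. Core and regulatory genes lie between 15.4 and 92.7, the 3 assembly chaperones between 2.18 and 4.998, and the long bars of Psma3, Psma5, Psmb3, Psmb5 and Psme2 reach down to the transgene female libraries.

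Within a group the members varied little. The median SD within groups was 0.11 on the log2 CPM scale over the 40 members, and 34 of them were under 0.15. Over all 16670 genes tested it was 0.24. Among genes whose log2 CPM averaged 4 or more it was 0.12 over 5613 genes and 0.10 over the 35 members at that level. Psme3 was the steadiest member, with an SD of 0.05 and 54.5 to 65.0 CPM in all 24 libraries. Psme2b (0.43), Psmb5 (0.34), Psmd8 (0.27), Psmc3ip (0.24) and Psmd6 (0.21) varied most. Psmd8 and Psmd6, subunits of the lid, are the abundant members among these without a copy: Psmd8 lay between 92.1 and 267 CPM and Psmd6 between 94.4 and 166 CPM.

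The response to tamoxifen was first taken in transgene females, where it is the conditional knockout. Of the 40 members 0 passed an adjusted p of 0.05 in edgeR's quasi-likelihood test, 1 had an unadjusted p under 0.05, and DESeq2 called 0. Of all 14211 genes tested, 1.32% passed and 16.8% had an unadjusted p under 0.05. The log2 changes of the members ran from -0.21 (Psme4) to 0.30 (Psmc3ip), with 24 of 40 above 0 and a median of 0.03. Over all genes tested 52.3% were above 0 and the median was 0.01. The smallest p was that of Psmb3, which read 21.9, 19.3 and 20.6 CPM after vehicle and 24.6, 23.6 and 24.3 CPM after tamoxifen. The groups did not overlap, and the log2 change was 0.24 ± 0.08 (SE; adjusted p = 0.184). Psme4 had -0.21 ± 0.10 (adjusted p = 0.324) and Psme1, the alpha chain of the interferon-inducible activator, 0.19 ± 0.11 (adjusted p = 0.44). Core genes had positive values in 12 of 14 cases, with a median of 0.06. The 17 regulatory genes had positive values in 6 cases, with a median of -0.03. Members tended to shift together in single libraries, as described below, so such counts of genes are not counts of separate cases.

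In flox females, which show the drug without Cre, 39 members could be tested, since Psme2b fell under the count filter. edgeR called 0 of the 39, with 0 at an unadjusted p under 0.05, and DESeq2 called 0. Of all 14539 genes tested, 0.131% passed and 8.65% had an unadjusted p under 0.05. The median change of the members was 0.05, against 0.00 over all genes, with 24 of 39 members and 50.5% of all genes above 0. The smallest p was that of the alpha subunit Psma5, at 34.4, 33.1 and 35.2 CPM after vehicle and 38.6, 35.1 and 38.9 CPM after tamoxifen. Its groups overlapped, and the log2 change was 0.13 ± 0.08 (SE; adjusted p = 0.677). Psma4, another alpha subunit, and Psmb2 had 0.15 ± 0.09 each (adjusted p = 0.677 and 0.699). Core genes were positive in 12 of 14 cases (median 0.11) and regulatory genes in 11 of 17 (median 0.03).

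In transgene males 0.889% of all 15628 genes passed and 10.1% had an unadjusted p under 0.05. There edgeR called 0 of 40 members, DESeq2 called 0 and 1 had an unadjusted p under 0.05. That 1 member was Psmd8, a lid subunit, which read 178, 203 and 267 CPM after vehicle and 112, 175 and 173 CPM after tamoxifen. The groups lay close but did not overlap, and the log2 change was -0.50 ± 0.19 (SE; adjusted p = 0.389). Next came the ATPase Psmc6 at 0.18 ± 0.08 (adjusted p = 0.51) and Psme2 at 0.20 ± 0.11 (adjusted p = 0.57). The median over the members was 0.04, against 0.01 over all genes, with 26 of 40 members and 51.3% of all genes above 0. In flox males 2.89% of all genes passed and 17.5% had an unadjusted p under 0.05. Of the 40 members edgeR again called 0 and DESeq2 0, and 3 had an unadjusted p under 0.05. These 3 were the ATPase Psmc3 (0.23 ± 0.10, adjusted p = 0.228), Psme4 (-0.25 ± 0.11, adjusted p = 0.243) and Psmc3ip (0.52 ± 0.24, adjusted p = 0.283). Psmc3 read 154, 162 and 185 CPM after vehicle and 199, 192 and 198 CPM after tamoxifen, so that its groups did not overlap. The median was 0.07, against -0.01 over all genes, with 27 of 40 members and 49.1% of all genes above 0.

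The proteolytic sites and single regulatory subunits were then read one by one, in transgene and flox females and then in transgene and flox males. Psmb6 had log2 changes of 0.08 ± 0.08 (SE) and 0.08 ± 0.09 in females and of 0.08 ± 0.08 and 0.09 ± 0.08 in males. Psmb7 had 0.06 ± 0.07, 0.15 ± 0.10, 0.09 ± 0.09 and 0.15 ± 0.09 in the same order. Psmc1 had 0.04 ± 0.07, 0.08 ± 0.10, 0.04 ± 0.10 and 0.07 ± 0.10. The ubiquitin receptor Psmd4 had 0.04 ± 0.08, 0.12 ± 0.12, 0.00 ± 0.12 and 0.23 ± 0.12, and the deubiquitinase Psmd14 had -0.01 ± 0.08, 0.03 ± 0.09, 0.11 ± 0.08 and 0.03 ± 0.08. Psmd1 had -0.07 ± 0.08, 0.02 ± 0.12, 0.08 ± 0.10 and 0.16 ± 0.10. The activator pair gave mixed signs: Psme1 had 0.19 ± 0.11, -0.13 ± 0.09, -0.17 ± 0.10 and -0.02 ± 0.10, and Psme2 had 0.19 ± 0.13, -0.09 ± 0.09, 0.20 ± 0.11 and -0.11 ± 0.10. The nuclear activator Psme3 lay between -0.13 ± 0.07 in transgene males and 0.05 ± 0.07 in flox females. The 95% interval of the change lay within 1.5-fold either way for 37 of 40 members in transgene females, 37 of 39 in flox females and 37 of 40 in each male genotype. The exceptions were Psmb5, Psmc3ip and Psme2b in transgene females, Psmb5 and Psmd6 in flox females, and Psmc3ip, Psmd8 and Psme2b in males. For the members within these bounds a larger response than 1.5-fold lay outside the interval, while a small response did not.

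**Figure D4:**
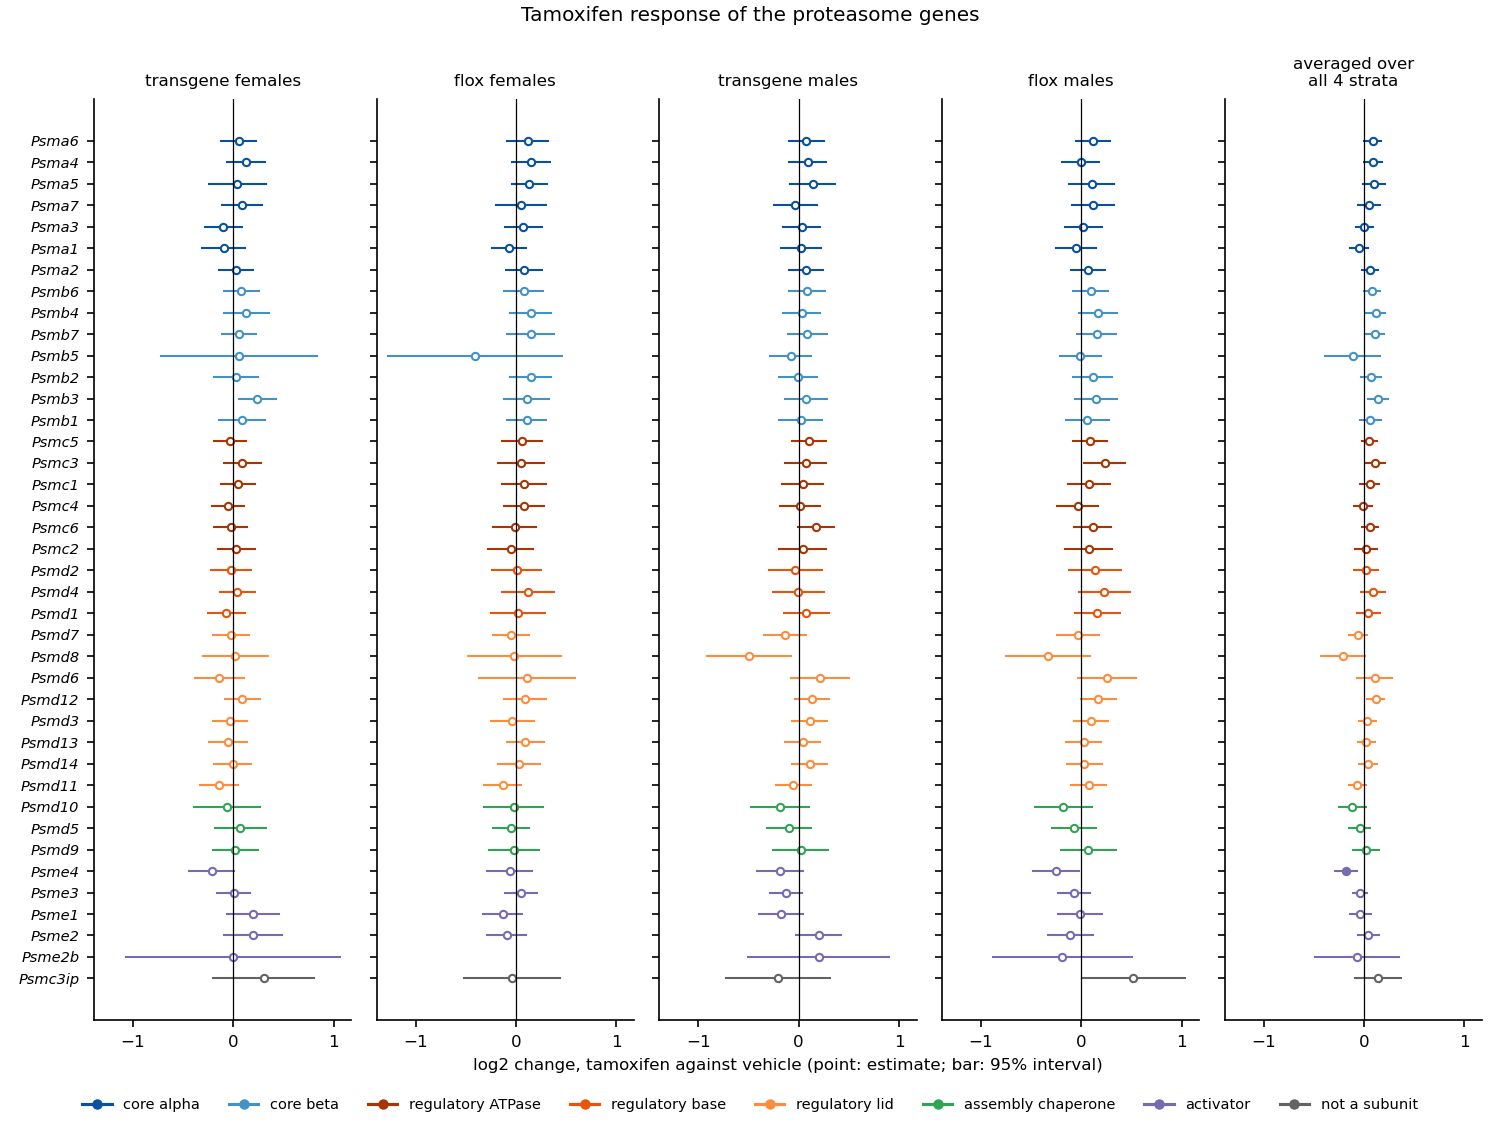
Log2 change with tamoxifen of each member (point) with its 95% interval (bar) in each stratum of sex and genotype and averaged over the 4 strata; colours give the role and a filled point marks an adjusted p under 0.05. The intervals of nearly all members straddle 0 in the single strata, and Psme4 in the average is the only filled point, at -0.18.

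Averaged over the 4 strata of sex and genotype, which share the 24 libraries in a single fit, 1 of 40 members passed the threshold and it fell. Of all 16670 genes tested, 8.83% passed, 4.88% as falls. The member was Psme4 (chromosome 11, 30771726 to 30880361, plus strand, GRCm38). In transgene females it read 306, 343 and 279 CPM after vehicle and 277, 243 and 277 CPM after tamoxifen, with means of 309 ± 32.2 and 265 ± 19.4 CPM (SD, n = 3). Flox females read 252, 281 and 234 CPM and then 263, 226 and 244 CPM, with means of 255 ± 23.7 and 244 ± 18.7 CPM. Transgene males read 395, 348 and 398 CPM and then 341, 331 and 333 CPM, with means of 380 ± 28.0 and 335 ± 5.65 CPM. Flox males read 314, 342 and 391 CPM and then 282, 272 and 328 CPM, with means of 349 ± 38.7 and 294 ± 29.8 CPM. The tamoxifen mean was lower in all 4 strata. Vehicle and tamoxifen libraries did not overlap in transgene animals of either sex and overlapped in flox animals of either sex. In transgene females the lowest vehicle library, at 279 CPM, lay just above the highest tamoxifen library, at 277 CPM. In the difference of the transgene and flox responses, Psme4 did not pass the threshold in either sex. The averaged log2 change was -0.18 ± 0.05 (SE; adjusted p = 0.0317, edgeR's quasi-likelihood test), a fall of 11.7%. The call depended on single libraries: it was lost in 11 of 24 fits that each left out 1 library, where its adjusted p ran from 0.0207 to 0.0671 and its log2 change from -0.20 to -0.16. Without all transgene males, of which only the 3 titled as vehicle have conflicting labels, it was -0.18 with an adjusted p of 0.0798. DESeq2 gave an adjusted p of 0.0157.

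Next to Psme4 in the average came the lid subunit Psmd12 at 0.12 ± 0.04 (adjusted p = 0.0767 in edgeR's test, 0.0419 in DESeq2) and Psmb3 at 0.14 ± 0.05 (adjusted p = 0.0867). Psmd12 had vehicle and tamoxifen means of 105 and 112 CPM in females with the transgene and 104 and 110 CPM in females without the transgene, and of 102 and 111 CPM and 90.8 and 102 CPM in the matching males. Without flox male vehicle library 3, edgeR called Psmd12 (adjusted p = 0.0413) and Psmb3 (adjusted p = 0.0331) and not Psme4 (adjusted p = 0.0601). Without flox female tamoxifen library 2, it called Psmb3 (adjusted p = 0.0376) and not Psme4 (adjusted p = 0.0607). The remaining members lay between -0.21 (Psmd8) and 0.14 (Psmc3ip). Core genes were positive in 12 of 14 cases (median 0.07) and regulatory genes in 13 of 17 (median 0.04). Assembly chaperones were positive in 1 of 3 cases (median -0.04) and activators in 1 of 5 (median -0.04). Over all genes 50.2% were positive and the median was 0.00. All 40 intervals lay within 1.5-fold.

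Markers of other cell types were read in the same averaged comparison. Over all genes 8.83% passed there, 4.88% as falls. Of 12 immune cell markers 1 fell in edgeR's test, the macrophage gene Cd68 by 0.64 on the log2 scale (adjusted p = 0.0446). Cd68 lay at only 0.419 to 4.29 CPM over the 24 libraries. Of 8 endothelial markers 1 fell, the receptor gene Kdr by 0.48 (adjusted p = 0.0478). Of the 8 slow fibre, 9 fast fibre, 7 blood cell, 8 fibroblast, 6 satellite cell, 7 adipocyte and 6 Schwann cell markers 0 passed in edgeR's test. The fast fibre marker Tnnc2 read 6312 to 14562 CPM in the 12 female libraries but 1.86 to 3.40 CPM in the 12 male libraries. The male table thus also departs from the others in single genes, and the reason was not tested. The median log2 change was -0.29 over the immune, 0.47 over the blood cell and 0.41 over the adipocyte markers. The summed immune markers lay at 32.8 to 74.7 CPM after vehicle and 34.5 to 37.9 CPM after tamoxifen in transgene females, and at 61.9 to 78.7 and 57.1 to 66.6 CPM in flox females. They lay at 46.4 to 110 and 52.4 to 93.6 CPM in transgene males and at 76.1 to 125 and 63.3 to 71.0 CPM in flox males. The endothelial sum lay between 234 and 344 CPM in the 12 female libraries and between 176 and 314 CPM in the 12 male libraries. The blood cell sum lay between 122 and 1070 CPM and the adipocyte sum between 98.9 and 302 CPM over the 24 libraries. No marker of these lists was at 0 in every library. Their part in the Psme4 result was not tested. In these bulk samples fewer cells of a type and less RNA per cell cannot be told apart.

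**Figure D5:**
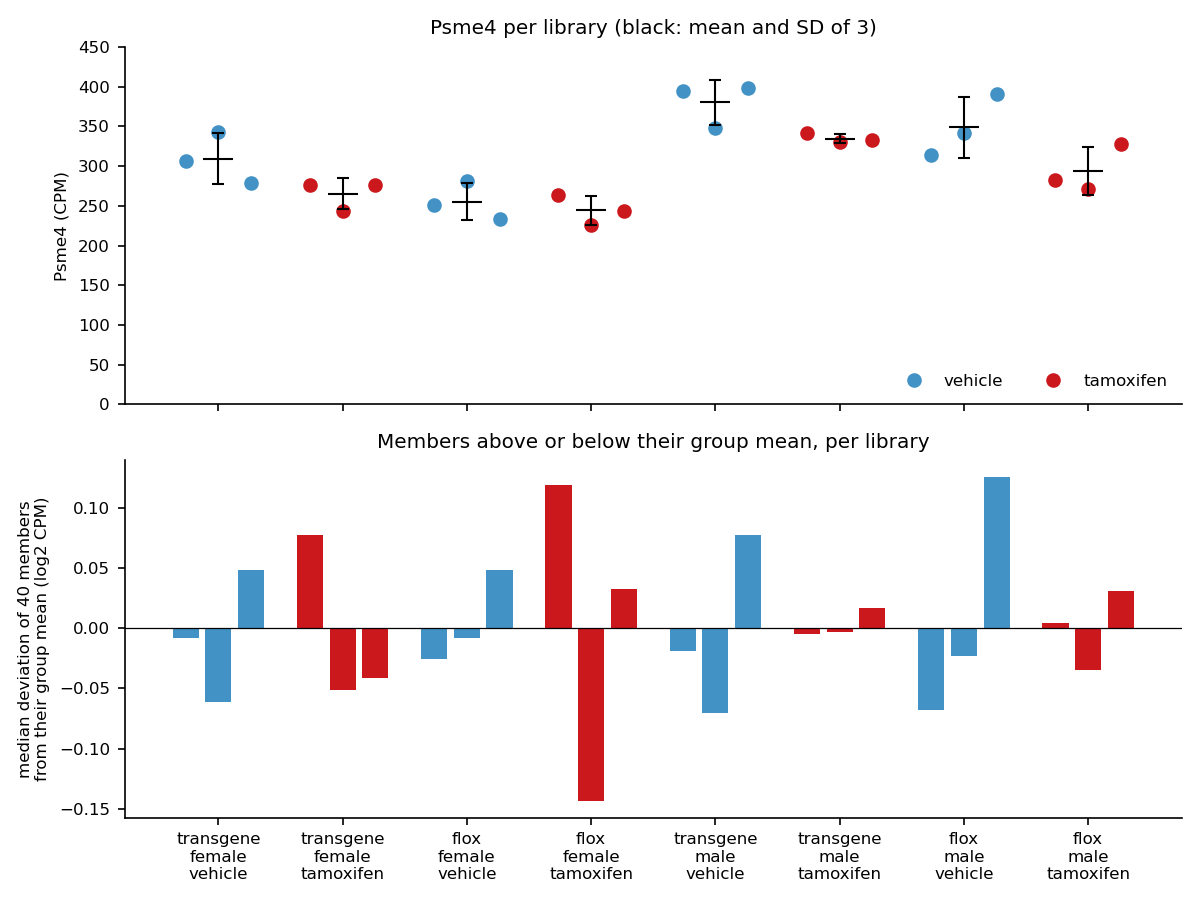
Upper panel: Psme4 in CPM in each library, with the mean and SD of each group of 3; lower panel: the median deviation of the 40 members from their group mean in log2 CPM, for each library. Psme4 has a lower mean after tamoxifen in all 4 strata, and flox female tamoxifen library 2 and flox male vehicle library 3 stand at -0.14 and 0.13 in the lower panel.

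Whether the knockout response differed from the response to the drug alone was tested as the difference of the transgene and flox responses. In females edgeR called 0 of 40 members and 0 of 15182 genes, so that 0.0% passed. There 1 member and 1145 genes had an unadjusted p under 0.05, and DESeq2 called 0 members and 42 genes. The member was Psme1, with a difference of 0.33 ± 0.15 on the log2 scale (SE; adjusted p = 0.656). It read 27.1, 24.4 and 31.2 CPM after vehicle and 34.8, 27.8 and 31.4 CPM after tamoxifen in transgene females, and 34.0, 35.9 and 33.6 against 28.6, 31.5 and 34.3 CPM in flox females. Its partner Psme2 had a difference of 0.28 ± 0.14 (adjusted p = 0.704). Groups overlapped for Psme1 in either genotype. In males edgeR called 0 of 40 members, 0 had an unadjusted p under 0.05 and DESeq2 called 0. Of 15628 genes 0.0128% passed and 8.25% had an unadjusted p under 0.05. The smallest p-values there were those of Psmc3ip (-0.72, adjusted p = 0.608), Psme2 (0.31 ± 0.15, adjusted p = 0.615) and Psmd4 (-0.23 ± 0.17, adjusted p = 0.751). Medians over the members were -0.02 in females and -0.04 in males, against 0.00 and 0.01 over all genes. These intervals were wider: 33 of 40 in females and 35 of 40 in males lay within 1.5-fold.

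Transgene and flox males lie in the same table and were compared directly. Their titles carry numbers from separate ranges, and the sources used here do not say whether the genotypes were raised or handled together. Genotype and any such difference of cohort cannot be told apart. After vehicle edgeR called 0 of 40 members and DESeq2 0, where 0.947% of 15628 genes passed. An unadjusted p under 0.05 was found for 8 members, 7 of them higher in transgene males, and for 17.2% of all genes. Of the 40 members 33 had a positive value, with a median of 0.12 against -0.02 over all genes, and 47.7% of all genes had a positive value. All 17 regulatory genes were positive (median 0.14), as were 10 of 14 core genes (median 0.09). The smallest p was that of Psmb2, a beta subunit without a proteolytic site, at 45.6, 49.5 and 47.5 CPM in transgene and 34.6, 37.8 and 43.1 CPM in flox males. Its groups did not overlap, and the log2 difference was 0.30 ± 0.09 (SE; adjusted p = 0.123). Psmb7 had 0.27 ± 0.09 (adjusted p = 0.165), with 140, 129 and 156 CPM against 114, 115 and 122 CPM, again without overlap. Psmd8 had 0.57 ± 0.19 (adjusted p = 0.17), with 178, 203 and 267 CPM against 139, 135 and 162 CPM. Psme2 was the 1 of the 8 with a lower value, -0.23 ± 0.11 (adjusted p = 0.286). The libraries titled as vehicle in transgene males are those with conflicting labels.

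After tamoxifen edgeR and DESeq2 called 0 of 40 members between the same genotypes, and 4 had an unadjusted p under 0.05. Of all genes 5.23% passed and 20.8% had an unadjusted p under 0.05. The median was 0.08 against -0.01 over all genes, with 30 of 40 members and 48.3% of all genes positive. Psmd14 had the smallest p: it read 56.7, 53.9 and 54.7 CPM in transgene and 44.3, 44.9 and 51.3 CPM in flox males, a difference of 0.23 ± 0.08 (SE; adjusted p = 0.121). Psmb6 had 0.19 ± 0.08 (adjusted p = 0.201) and Psmb7 0.20 ± 0.09 (adjusted p = 0.223). The 2 genotype comparisons have no library in common, and in the same model the members' medians were above 0 in each. The slow fibre markers, summed, ran from 292 to 2740 CPM in transgene vehicle males, 101 to 2253 CPM in transgene tamoxifen males, 1871 to 2406 CPM in flox vehicle males and 2190 to 2768 CPM in flox tamoxifen males. The blood cell markers ran from 312 to 399, 288 to 618, 570 to 1070 and 479 to 759 CPM in the same order. Their part in the members' values was not tested.

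The balance of core and regulatory genes was read as the mean log2 CPM of the 14 core genes minus that of the 21 genes with Psmc and Psmd symbols. It was -0.36 ± 0.03 (SD, n = 3) after vehicle and -0.31 ± 0.03 after tamoxifen in transgene females. In flox females it was 0.03 ± 0.06 and 0.09 ± 0.04. Among males it was 0.10 ± 0.04 and 0.15 ± 0.05 with the transgene and 0.15 ± 0.01 and 0.15 ± 0.03 without it. Vehicle and tamoxifen libraries overlapped in each stratum, and the highest transgene female library, at -0.29, lay below the lowest of the other 18, at -0.03. Restricted to the 17 regulatory subunits, the value ran from -1.11 to -1.04 in transgene females and from -0.72 to -0.61 in the other 6 groups. With members that have a near-identical copy also left out, it ran from -0.40 to -0.33 in transgene females and from -0.44 to -0.32 in the others, so that without the genes that have copies the transgene females lay within the range of the other groups. The absolute value of such a difference of CPM depends on gene length and is not a ratio of subunits.

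Members tended to lie above or below their group mean together in single libraries. In flox male vehicle library 3, 36 of 40 members were above their group mean, with a median deviation of 0.13 on the log2 CPM scale, while 46.7% of all genes were above. That library also had the highest level of the heat shock gene Hspa1a, 250 CPM against 1.14 to 10.7 CPM in the other 23, and of Nfe2l2, a stress-response transcription factor gene, 67.1 CPM against 28.3 to 54.4 CPM. Nfe2l1, whose protein is known to drive proteasome gene transcription when proteasomes are inhibited, read 667 CPM there and 610 and 646 CPM in the other 2 libraries of the group. In flox female tamoxifen library 1, 33 of 40 members were above (median deviation 0.12), and in library 2 of that group 4 of 40 were (median deviation -0.14). Hspa1a read 1.14 CPM in the former, the lowest of the 24 libraries, and 2.43 CPM in the latter. Nfe2l2 read 41.8 and 54.4 CPM and Nfe2l1 860 and 868 CPM in the same order. In transgene females 35 members were above in tamoxifen library 1 and 34 in vehicle library 3, where Hspa1a read 4.14 and 6.86 CPM. Nfe2l2 read 45.0 and 37.9 CPM and Nfe2l1 955 and 881 CPM there. In transgene male vehicle library 3, 33 members were above (median deviation 0.077). Hspa1a (2.32 CPM), Nfe2l2 (28.3 CPM) and Nfe2l1 (675 CPM) were the lowest of that group there, and this Nfe2l2 value was the lowest of the 24 libraries. The part of Hspa1a, Nfe2l2 and Nfe2l1 in the members' values was not tested. Across the 24 libraries the count above the group mean ran from 4 to 36 of 40, and the share of all genes above ran from 44.4% to 55.4%. In a group of 3 the deviations sum to 0, so 1 high library sets the others low.

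The region before the transcription start was read for 34 of the 40 members that matched the RefSeq promoter table (GRCm38.p6), over 250 bases upstream and on both strands, for 8 motifs. The letters GGAAG, the core of sites of ETS-family factors, occurred in 32 of 34 members (94.1%) and in 66.9% of the promoters of 27025 genes. The GC box GGGCGG occurred in 58.8% of members and 35.4% of all, and the median GC content was 57.7% against 52.4%. TGANNNNGC, which takes in the antioxidant response element read by the NFE2-like factors, occurred in 38.2% and 38.7%, and the stricter TGACNNNGC in 14.7% and 11.5%. TGACTCAGC occurred in 0 of 34 members and in 0.426% of all genes. CCAAT occurred in 38.2% and 37.5%, GGTGG in 44.1% and 56.9%, and TTCC, which overlaps the reverse of GGAAG, in 100% and 94.2%. The stretches from 125 to 6 bases before the start are shown for the core genes with the most and, in alphabetical order, the next most GGAAG matches there, with GGAAG or its reverse complement in capitals.
Psmb4 (chr3:94886964-94887083, minus strand): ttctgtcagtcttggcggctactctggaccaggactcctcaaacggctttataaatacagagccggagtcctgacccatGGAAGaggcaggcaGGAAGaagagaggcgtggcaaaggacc
Psma1 (chr7:114276122-114276241, minus strand): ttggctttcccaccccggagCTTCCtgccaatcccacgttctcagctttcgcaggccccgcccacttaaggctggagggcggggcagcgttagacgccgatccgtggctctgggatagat
The match in Psma1 is on the opposite strand, and Psmb4 has 2 matches on its own strand. A match of letters is a description and not a binding site.

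Other genes of the ubiquitin pathway were read in the same comparisons. Over all genes 8.83% passed in the average over the 4 strata, 4.88% as falls. Of 18 genes of activating and conjugating enzymes, 2 fell with tamoxifen in that average, Ube2n by 0.20 ± 0.04 on the log2 scale (SE; adjusted p = 0.0059) and Cdc34 by 0.19 ± 0.05 (adjusted p = 0.0129), and 0 rose. Of 19 genes of muscle ubiquitin ligases, 1 rose and 4 fell there, a larger share than that over all genes, which was not tested. Stub1, which encodes a ligase that works with chaperones, rose by 0.22 ± 0.04, and Asb2, a substrate receptor that is abundant in muscle, fell by 0.57 ± 0.08, as did Asb5 by 0.22 ± 0.05, Fbxo40 by 0.19 ± 0.05 and Klhl40 by 0.18 ± 0.05. Asb2 also fell in transgene females by 0.88 ± 0.13 (adjusted p = 0.0232) and in flox males by 0.60 ± 0.15 (adjusted p = 0.0471). Between males after tamoxifen, where 5.23% of all genes passed, 2 of 18 conjugating enzyme genes, 1 of 12 shuttle factor and p97 complex genes and 4 of 19 ligase genes did. Ube2d2a was higher in transgene animals by 0.38 ± 0.08, Ube2n by 0.31 ± 0.07, the shuttle factor Rad23b by 0.33 ± 0.08, Asb2 by 0.68 ± 0.15 and the sarcomeric ligase Trim55 by 0.30 ± 0.08, and Fbxo21 and Cblb had differences of -0.84 ± 0.15 and -0.62 ± 0.12. The immunoproteasome gene Psmb9 fell in the average by 0.56 ± 0.18 (adjusted p = 0.0481), at 1.10 to 5.01 CPM over all libraries, while Psmb8 and Psmb10 did not pass. Of 5 further assembly chaperone genes, 12 other subunit and associated genes, 10 genes of transcriptional control and 4 ubiquitin genes, edgeR's test called 0 in any of the 9 comparisons.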

How the data were processed

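Raw read counts per Ensembl gene were deposited by the authors in 3 tables. The tools named in the submitters' processing notes are STAR, featureCounts and limma, with the builds GRCm38 and mm10. The sources used here do not give the kit, strand setting, annotation release or treatment of multi-mapping reads. Symbols, coordinates and exon lengths come from GENCODE M21 (GRCm38) and matched 54723 of 54752 IDs. The members and lists were chosen with earlier results of these data known. Named members were those past the threshold, the 3 smallest p-values otherwise, and a fixed set of subunits.

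Differential expression was tested on these counts with edgeR 4.0.16 under R 4.3.3, using TMM normalization, filterByExpr (minimum count 10, minimum total 15), robust quasi-likelihood F-test, Benjamini-Hochberg adjustment over all genes and a threshold of 0.05. SE is the change divided by the square root of F. Female strata were fitted on their own 6 libraries, males on 12, the average on 24. CPM were TMM-scaled over 24 libraries; log2 CPM used a prior count of 2. Copies were found with blastn 2.17.0+ (95% identity, 50 bases). Of the 40 members 12 have exons that overlap another gene. No pair of libraries of a group was alike within sampling noise (chi-square per degree of freedom 9.22 to 117 over 24 pairs). The tests were checked on simulated data. Alternatives were DESeq2 1.42.0, RLE scaling, no filter, left-out libraries, a replicate block and added copies.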

Additional observations from a re-analysis of the deposited data

How the results depend on the processing

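In 8 of the 9 comparisons 0 members passed in edgeR's test and under every alternative run. In the average over the 4 strata the count of 1 became 2 with DESeq2, 0 without transgene males and 0 to 2 without single libraries, and RLE scaling, no count filter and added copies kept it at 1. Among 1828 values of single members past the threshold in neither fit, 55 had another sign under the alternative.

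The counts of all genes past the threshold moved more. With DESeq2 they were 681 and 143 in transgene and flox females, 317 and 866 in transgene and flox males, 594 between vehicle males, 1301 between tamoxifen males, and 42 and 75 for the differences of female and male responses. Without a count filter they were 941 and 329 in transgene and flox females, 221 in transgene males, 327 between vehicle males, and 20 and 38 for these differences. With only the 6 libraries compared they were 27 in transgene males and 917 in flox males, and RLE scaling gave 1 for the female difference. Leaving out single libraries gave 37 to 215 in transgene females, 3 to 87 in females without the transgene, 68 to 151 in transgene males, 143 to 644 in males without the transgene, 44 to 204 between vehicle males, 280 to 997 between tamoxifen males, 0 to 2 for the difference of female responses and 2 to 8 for that of male responses. The members' median log2 change without single libraries ran from -0.025 to 0.058 in transgene females and -0.016 to 0.13 in flox females, so that its sign turned in each. It ran from 0.0087 to 0.092 in transgene males, 0.019 to 0.15 in flox males, 0.064 to 0.21 between vehicle males, 0.062 to 0.097 between tamoxifen males and 0.027 to 0.062 in the average, and turned sign for the differences of female (-0.08 to 0.041) and male responses (-0.1 to 0.023).

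The mean over 24 libraries of the core minus regulatory difference was 0.00, and -0.01 to 0.02 without single libraries. It was -0.54 with medians over members, -0.76 with only the 17 regulatory subunits and 0.48 with members that have a copy left out. The value of 0.48 still includes the low assembly chaperones and Psmc3ip on the regulatory side. With only the 17 subunits and copies left out, group means ran from -0.44 to -0.32. These restrictions were chosen after seeing the data. So were the added copies, the average without transgene males, the transcript length and the levels over males.

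With the replicate number as a block, edgeR called 15 genes and 0 members in flox females, against 19 and 0 without it. Same-numbered libraries had correlations of -0.17, -0.04 and -0.10 and shared only a number. With 3 libraries per group, changes well under 1.5-fold could not be told from 0 for most members.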
